A study of Mus musculus with 2 samples.

Results

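Conventional natural killer (NK) cells that carry Ly49 receptors were picked from 2 single-cell RNA libraries of lymphocytes sorted from mouse tumours, and 317 of 21021 kept cells were of this kind. A cell was taken when it held at least 1 unique molecular identifier (UMI, one counted message) of Ncr1 or Klrb1c, at least 1 of Klra4 or Klra8, and 0 of Cd3d, Cd3e, Cd3g, Cd8b1, Il7r and Cd200r1. The WT-labelled library gave 145 of these cells and the Dapl1-KO-labelled library gave 172. All mice were C57BL/6, and sorting took cells positive for CD45, found on all leukocytes, and for CD90.2 (Thy1), which T cells and some innate lymphocytes display. NK cells without CD90.2 on their surface were therefore not sampled. The study's subject is Dapl1 in CD8 T cells of tumours, and the 2 labels are the wild type and the Dapl1 knockout. The tumour line, the age and sex of the mice, and the number of mice behind each library are not given in the sources used here. With 1 library per label, differences between the labels have no replicate check and no test, and every interval beside them covers counting error only.

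NK cells are innate lymphocytes that kill stressed, infected or transformed cells with perforin and granzymes, without a rearranged antigen receptor. Ly49 receptors are lectin-like proteins of mouse NK cells, encoded by the Klra genes, and most of them bind MHC class I and restrain the cell through an inhibitory tail. Ly49D (Klra4) and Ly49H (Klra8) are activating members that signal through the adaptors DAP12 (Tyrobp) and DAP10 (Hcst), and Ly49H is known for binding a protein of mouse cytomegalovirus. Each NK cell expresses its own mixture of Ly49 genes. Conventional NK cells need the transcription factor Eomes, whereas the related ILC1 of tissues hold little of it and carry IL-7 receptor (Il7r), CD200R1, CXCR6 and TRAIL (Tnfsf10).

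The members held 1077018 UMIs in the WT-labelled library and 1312812 in the Dapl1-KO-labelled library, and the median member had 6440 and 6806 UMIs from 1732 and 1785.5 genes. Before selection the libraries held 16673 and 19662 barcodes, of which 13132 occurred in both. Only a copy with at least 2 times the UMIs of the other was kept. Of the members, 117 (80.7%) of WT and 94 (54.7%) of Dapl1-KO had a copy of their barcode in the other library, and that copy held a median of 26.2% and 10.8% of the member's UMIs. Sex-linked messages also separated the libraries. Xist or Tsix without a Y-linked message was seen in 126 members of WT and 0 of Dapl1-KO, and a Y-linked message alone in 6 and 106. The label, the sex-linked messages and any difference in handling cannot be told apart in these data. Dapl1 itself was nearly silent in these cells, with 1 count in WT and 0 in Dapl1-KO, where 0 counts allows a level of up to 2.29 CPM (counts in every 1000000 UMIs). It could not check the label here. In CD8 T cells Dapl1 stood at 38.9 CPM in WT and 29.5 CPM in Dapl1-KO, lower but still present in the library labelled as the knockout. Of these CD8 T cells, 67.0% and 55.4% had a copy of their barcode in the other library. The part of such copies in these levels was not tested.

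The genes that the rule did not use carried the profile of cytotoxic NK cells. Levels were counts summed over the members of a library and scaled to CPM by their UMI total. Gzma (granzyme A), the leading granule protease of mouse NK cells, was at 6111 CPM in WT and 9637 CPM in Dapl1-KO, against 158 and 353 CPM in CD8 T cells and 28.3 and 65.0 CPM in CD4 T cells. Eomes was at 273 and 222 CPM, against 58.4 and 46.8 CPM in CD8 T cells. Prf1, the pore-forming perforin, was at 331 and 418 CPM, a level that CD8 T cells of the Dapl1-KO-labelled library also reached (204 and 400 CPM). Tyrobp, the adaptor of activating receptors, was at 2101 and 2541 CPM, against 46.0 and 75.8 CPM in CD8 T cells. Mature NK cells of blood and spleen also express Itgam (CD11b), Klrg1, S1pr5, Cma1 and Itga2 (CD49b), and these were sparse in the tumour-derived members. Itgam had 14 counts in WT and 49 in Dapl1-KO, Klrg1 had 20 and 36, Itga2 had 20 and 33, Cma1 had 17 and 33, and S1pr5 had 5 and 1. The label of conventional NK cells thus rested on Gzma, Eomes, Prf1 and Tyrobp, and not on these markers of late maturity.

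Macrophage, neutrophil and melanocytic messages were low or absent, while some T cell receptor and dendritic cell messages were present. Trac, the α-chain constant region, was at 23.2 CPM in WT and 19.8 CPM in Dapl1-KO, against 439 and 521 CPM in CD8 T cells. Trbc1, the β-chain constant region, was at 600 and 543 CPM, as high as in CD8 T cells (502 and 723 CPM). The 8 monocyte and macrophage markers summed to 21.4 and 34.3 CPM, with Lyz2 at 0.93 and 2.29 CPM and C1qa at 0 in both libraries. All 8 genes could be read in the files, and 3 of them had 0 counts in WT and 2 in Dapl1-KO. Both neutrophil markers had 0 counts, and the 5 melanocytic markers summed to 0.93 and 12.9 CPM. The markers of gamma-delta T cells summed to 52.9 and 48.8 CPM, against 31.7 and 36.9 CPM in all kept cells outside the NK gate. The 5 dendritic markers summed to 55.7 and 70.8 CPM. The automatic threshold of a doublet caller marked 0 cells, and removing the cells with the highest doublet scores took out 0 and 1 members.

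**Figure D1:**
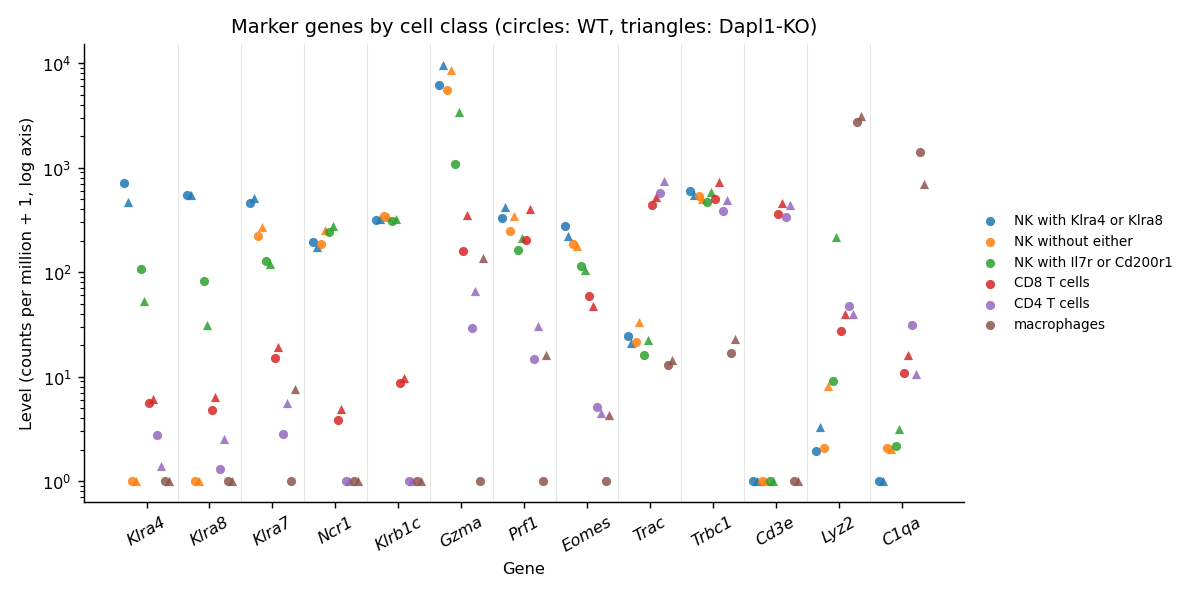
Level of 13 genes in 6 cell classes, in CPM plus 1 on a log axis, with circles for the WT-labelled library and triangles for the Dapl1-KO-labelled library. Gzma lies at 6111 and 9637 CPM in the Ly49 NK cells and at 158 and 353 CPM in CD8 T cells, while Lyz2 is at 0.93 and 2.29 CPM in the Ly49 NK cells.

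Which cells just outside the thresholds were closest to the members depended on the gene. Members with exactly 1 UMI of Klra4 and Klra8 together numbered 16 in WT and 21 in Dapl1-KO. Gzma was at 12869 CPM in the 16 WT cells and 5502 CPM in the 129 with 2 or more UMIs. In Dapl1-KO the order was the other way, at 8493 CPM in the 21 cells and 9799 CPM in the 151 with 2 or more UMIs. Gated NK cells with neither Klra4 nor Klra8, and with 0 of Il7r and Cd200r1, had Gzma at 5506 CPM in WT and 8598 CPM in Dapl1-KO. Cells with Klra4 or Klra8 that were left out for Il7r or Cd200r1 numbered 23 in WT and 6 in Dapl1-KO, with Gzma at 1395 and 1400 CPM. Their Eomes (219 and 107 CPM), Prf1 (295 and 240 CPM) and Klra7 (383 and 373 CPM) lay closer to the members' levels than Gzma did. In the cells with neither Klra4 nor Klra8, Klra7 was at 221 and 268 CPM. Of the cells with Klra4 or Klra8 that were left out, 15 in WT and 3 in Dapl1-KO held a single UMI of Il7r or Cd200r1. These values used the rule's own threshold and are a description only.

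Ly49 NK cells made up about the same share of both libraries. They were 1.47% of kept cells in WT (exact Clopper-Pearson 95% interval 1.24% to 1.73%) and 1.54% in Dapl1-KO (1.32% to 1.79%). Among all gated NK cells (396 and 501), they were 36.6% (31.9% to 41.6%) and 34.3% (30.2% to 38.7%), and the intervals overlapped. The other gated NK cells differed in share. Those with Il7r or Cd200r1 were 29.3% (24.9% to 34.0%) in WT and 11.8% (9.09% to 14.9%) in Dapl1-KO, and those with none of the 4 genes were 34.1% (29.4% to 39.0%) and 53.9% (49.4% to 58.3%). With members whose barcode occurred in 1 library only (28 and 78 cells), the shares of kept cells were 0.936% and 1.48%.

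The Ly49 genes lie side by side on the minus strand of mouse chromosome 6. In GRCm38, GENCODE vM21 places Klra4 at chr6:130043731-130067271, Klra8 at chr6:130115226-130129898, Klra7 at chr6:130218605-130233322 and Klra3 at chr6:130323289-130337574. The family is made of near copies, and 50-base stretches of the last 500 bases of a transcript that also occur in another Ly49 transcript or pseudogene made up 44.8% for Klra9, 42.4% for Klra3, 27.5% for Klra7, 13.1% for Klra8, 5.76% for Klra1 and 4.66% for Klra4. Counts of Klra3, Klra7 and Klra9 are therefore uncertain, since 3′ reads may fit more than 1 gene. Klra4, Klra1 and Klra8 are the best separated of those with more than 50 CPM.

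Among the activating receptors, Klra4 had 762 counts in WT and 613 in Dapl1-KO, or 708 and 467 CPM. Klra8 had 584 and 715 counts, or 542 and 545 CPM, a log2 ratio of 0.01 (95% interval -0.15 to 0.17). Klra4 was thus lower in the Dapl1-KO-labelled library (log2 ratio -0.60, -0.76 to -0.44) while Klra8 stood level. Because the rule demands 1 of these 2 genes, their levels depend on each other and are a description. In members whose barcode occurred in 1 library only, the Klra4 ratio was 0.08. Most cells held only 1 of the pair. In WT, 30.3% had Klra4 only, 32.4% Klra8 only and 37.2% both. In Dapl1-KO, 23.8% had Klra4 only, 50.6% (42.9% to 58.3%) Klra8 only and 25.6% both. Cells with Klra8 only thus made up more of the members in the Dapl1-KO-labelled library. After thinning each cell to 3000 UMIs, which left out 5 and 3 shallower cells, their share was 39.6% in Dapl1-KO and 28.6% in WT, with overlapping intervals. In CD4 T cells thinned in the same way, which should lack both genes and had similar median depths (6434 and 6504 UMIs), 0.319% and 0.198% of cells held a Klra4 UMI and 0.213% and 0.397% a Klra8 UMI.

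The inhibitory receptors were not used by the rule. Klra7 (Ly49G) led them, with 494 counts in 84 cells of WT and 664 in 115 cells of Dapl1-KO, or 459 and 506 CPM (log2 ratio 0.14, -0.029 to 0.31). Klra9 (Ly49I) was at 179 and 214 CPM, and its interval included 0 (0.26, -0.013 to 0.53). Klra1 (Ly49A) was at 94.7 and 80.7 CPM (-0.23, -0.64 to 0.18). Klra3 (Ly49C), which binds self MHC class I of C57BL/6 mice, was the tested Ly49 gene with the largest difference. It had 99 counts in 33 cells of WT and 244 in 60 cells of Dapl1-KO, or 91.9 and 186 CPM (log2 ratio 1.02, 0.67 to 1.37). Klra3 shares much of its 3′ sequence with Klra9, whose counts lay closer together. The rest were rare. Klra6 had 8 and 8 counts, Klra5 had 3 and 30 in 2 and 4 cells, Klra10 had 2 and 0, and Klra2 and Klra17 had 0 in both libraries.

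Most cells carried several Ly49 genes. At least 1 of Klra1, Klra3, Klra7 and Klra9 was counted in 84.8% (77.9% to 90.2%) of members in WT and 90.7% (85.3% to 94.6%) in Dapl1-KO. A count of 3 different Ly49 genes was the most common, in 33.8% and 39.5% of cells, followed by 2 genes in 29.0% and 29.7%. Only 11.7% and 8.14% of cells showed a single Ly49 gene, and 2.07% and 2.33% showed 6. A UMI may be missed in a shallow cell, which lowers these numbers, and reads placed on a near copy would raise them. In gated NK cells without Klra4 and Klra8, Klra7 was still at 221 and 268 CPM and Klra3 at 46.3 and 86.3 CPM, so that group is not free of Ly49 genes. It is called Ly49-negative in the plots for want of the 2 activating genes alone.

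**Figure D2:**
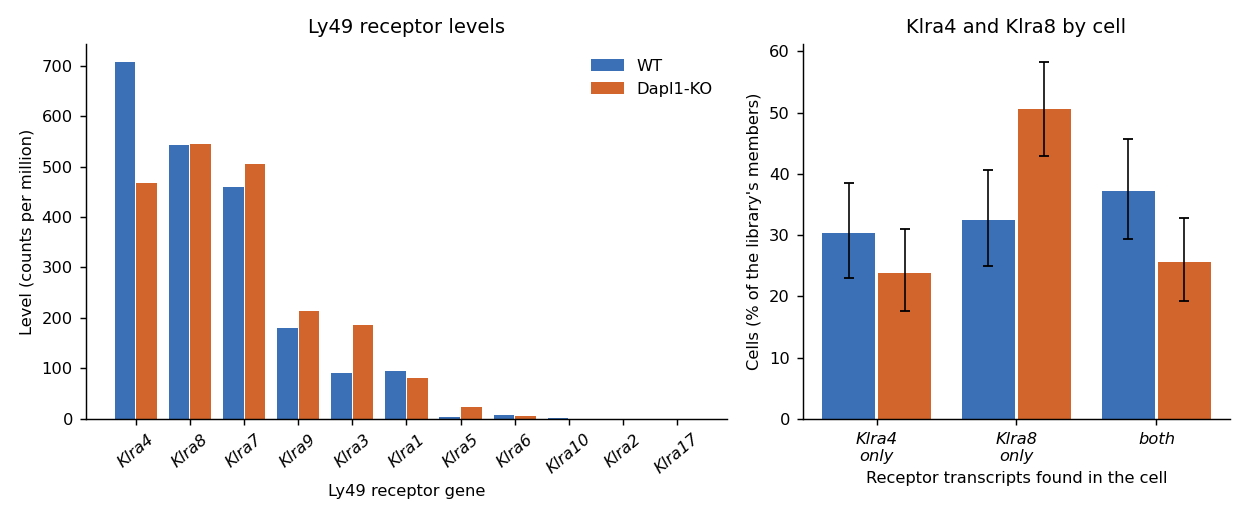
Left, CPM of each Ly49 gene in the members of the libraries labelled WT and Dapl1-KO; right, the percentage of members with Klra4 only, Klra8 only or both, with exact 95% intervals. Klra4 reads 708 and 467 CPM and Klra3 91.9 and 186 CPM, and cells with Klra8 only are 32.4% and 50.6% of members.

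Between the labels, a gene was counted as higher or lower when it reached 50 CPM in at least 1 library and differed at least 1.5-fold. Of 2214 such genes in the Ly49 NK cells, 165 (7.45%) passed, 96 (4.34%) higher and 69 (3.12%) lower in the Dapl1-KO-labelled library, and the median log2 ratio of all 2214 was 0.08. For all 165 the counting interval left out 0, which the limits on level and fold nearly ensure, so it adds no support. Of these, 91 of the 96 and 66 of the 69 still passed once the highest cell of each library was left out for each gene. Among the ranked genes, the highest ratios were those of Gzmd, Fosb, Gzmf, Tubb4b and Gzmb, of which Gzmd and Gzmf rested on 1 cell. The lowest were those of the heat shock genes Hspa1a, Hspa1b and Dnajb1, followed by Tmem106b and Ccdc117. Among 6 tested Ly49 genes, 1 (Klra3) was higher and 1 (Klra4) lower. Klra4 and Klra8 are genes of the rule, so their levels here are a description only.

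**Figure D3:**
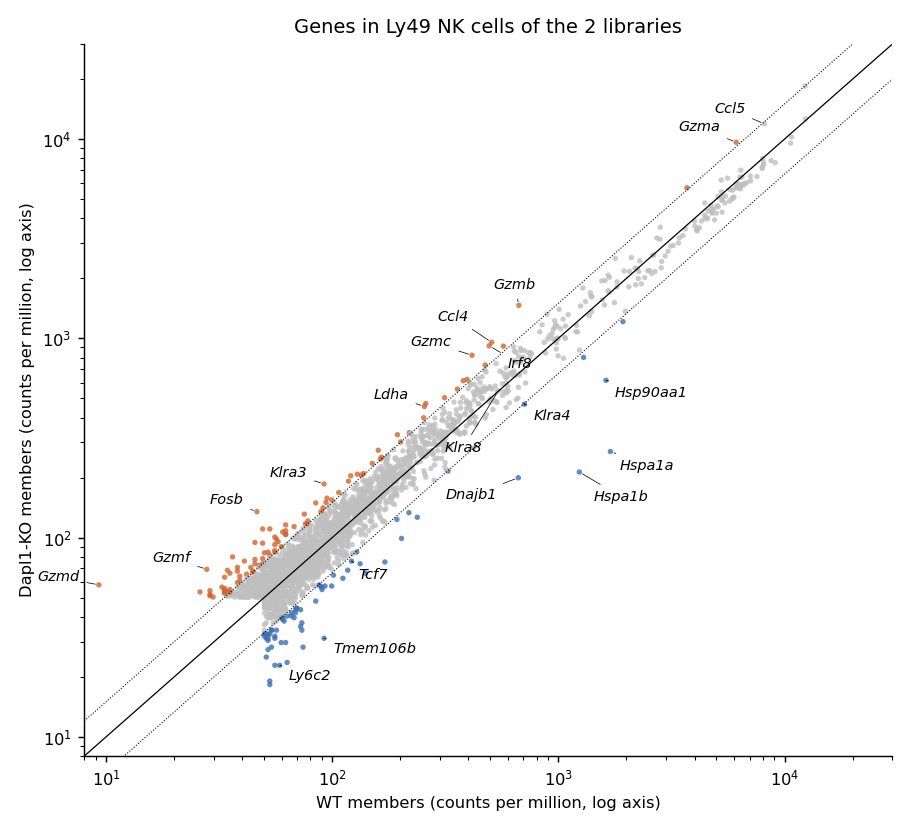
Level of each of 2214 genes in the Ly49 NK cells of the WT-labelled library (horizontal) and Dapl1-KO (vertical), in CPM on log axes, with dotted lines at a 1.5-fold difference. The 96 higher genes are orange and the 69 lower genes blue. Hspa1a lies below the lines at 1697 and 270 CPM, and Gzmb above them at 669 and 1464 CPM.

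Of 16 tested genes of granule content and release, 5 were higher in the Dapl1-KO-labelled library and 1 was lower. Among all tested genes 4.34% were higher and 3.12% lower. All 5 higher genes were granzymes, and 3 of the 5 (Gzmc, Gzmd and Gzmf) rested on 1 cell. The list's median log2 ratio was 0.34, or 0.19 without that cell, against 0.08 for all genes. Gzmb (granzyme B), a protease that cleaves caspases in target cells, had 720 counts in 99 cells of WT and 1922 in 143 cells of Dapl1-KO, or 669 and 1464 CPM (log2 ratio 1.13, 1.01 to 1.26). After thinning, 55.7% (47.1% to 64.1%) and 71.6% (64.2% to 78.3%) of members held a Gzmb UMI, against 33.6% and 43.0% of CD4 T cells. Cells with 0 counts numbered 46 of 145 and 29 of 172, and the median cell had 2.71 and 4.53 counts per 10000 UMIs. Gzma differed by a log2 ratio of 0.66 (0.61 to 0.70), and its median cell had 48.3 counts per 10000 UMIs in WT and 87.1 in Dapl1-KO. The 2 distributions overlapped widely, from 0 to 415 in WT and from 0 to 358 in Dapl1-KO. Prf1 (0.34, 0.14 to 0.54) and Nkg7 (0.50, 0.42 to 0.58), a protein of granule release, were within the fold limit. Lamp1 (CD107a), which appears on the surface when granules fuse, was lower, at 63.1 and 40.4 CPM (log2 ratio -0.65). Gzmb was at 0.43 in members whose barcode occurred in 1 library only, where Gzma was at 1.04. Gzma was at 0.58, just inside the fold limit, when ratios were centred on the median gene, and at 0.47 when both Ncr1 and Klrb1c were required.

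A single cell carried the difference in the other granzymes. Gzmc, Gzmd and Gzmf lie beside Gzmb on chromosome 14, in a row of related genes whose shared sequence was not measured. Gzmc had 447 counts in WT and 1079 in Dapl1-KO, of which 709 came from 1 cell with 21358 UMIs. The same cell held 70 of the 76 Gzmd counts and 69 of the 91 Gzmf counts, together with 128 of Gzmb, 46 of Prf1 and 12 of Klra4, and 0 of Klra8 and Trac. Without it the log2 ratios were -0.53 for Gzmc, -0.999 for Gzmd and -0.71 for Gzmf, in the opposite direction, and the median of the granule list was 0.19. Gzmc was counted in 36 of 145 cells in WT and 32 of 172 in Dapl1-KO.

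Among transcription factors of NK maturation, Irf8 had the largest difference. Irf8, an interferon regulatory factor needed for antiviral NK responses, had 532 counts in WT and 1203 in Dapl1-KO, or 494 and 916 CPM (log2 ratio 0.89, 0.74 to 1.04). The median cell had 3.46 and 7.5 counts per 10000 UMIs, and 54.3% (45.7% to 62.7%) and 84.6% (78.3% to 89.7%) of thinned members held a UMI, against 7.12% and 16.9% of CD4 T cells. Irf8 stayed past the fold limit under every alternative choice of cells and scaling that was run. It was also higher in the Dapl1-KO-labelled library in CD8 T cells (0.80) and in the Ly49-negative NK cells (0.73), so the direction was shared by other cell types. Eomes (-0.30, -0.53 to -0.057) and Tbx21 (T-bet; -0.22, -0.75 to 0.32), the T-box factors that define the lineage, were within the limit. Tcf7 (TCF-1), a factor of immature NK cells, was lower at 122 and 76.2 CPM (-0.68, -1.07 to -0.29), and -0.47 with barcodes of 1 library only. Klf2, a factor of lymphocyte trafficking, was higher at 395 and 622 CPM (0.66, 0.49 to 0.83), and 0.58, inside the limit, when centred. Over the list, 2 of 16 tested factors were higher and 1 was lower, with a median of 0.18. Among all tested genes 4.34% were higher and 3.12% lower.

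Of the tested cytokines and chemokines, only Ccl4 and Ccl3 were past the fold limit. Xcl1, another abundant chemokine, was at 1599 CPM in WT and 1469 CPM in Dapl1-KO. Ccl4 (MIP-1β) had 546 counts in 68 cells of WT and 1253 in 83 cells of Dapl1-KO, or 507 and 954 CPM (log2 ratio 0.91, 0.77 to 1.06). Few cells made most of it, as the top 10% of cells held 74.2% and 76.2% of its counts, and with barcodes of 1 library only the ratio was -0.75. Ccl3 (MIP-1α) was at 165 and 253 CPM (0.61, 0.35 to 0.89). Ccl5 (RANTES) was the most abundant at 8152 and 11921 CPM, within the limit at 0.55. Ifng (interferon-γ) was counted in 73 and 111 cells, at 227 and 319 CPM (0.49, 0.26 to 0.72), also within the limit. Of 7 tested cytokines and chemokines, 2 were higher and 0 lower, against 4.34% and 3.12% of all tested genes. The list's median was 0.49, or -0.16 with no CPM minimum. The integrin chain Itgb2 was higher (62.2 and 108 CPM; 0.80, 0.37 to 1.24). Il12rb2, the signalling chain of the IL-12 receptor, was counted in 24 and 56 cells (0.85, 0.22 to 1.51) and stood at -0.45 with barcodes of 1 library only.

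**Figure D4:**
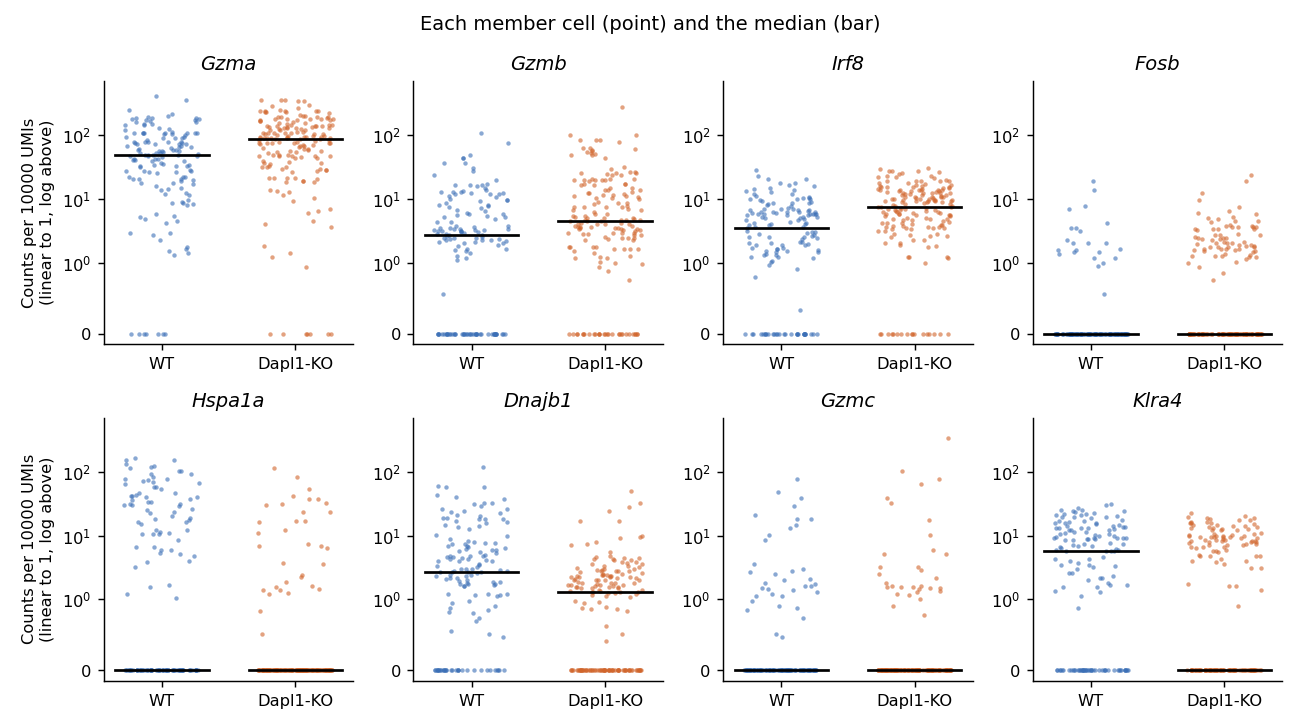
Counts per 10000 UMIs of 8 genes in each Ly49 NK cell of the libraries labelled WT (145 cells) and Dapl1-KO (172 cells), with a bar at the median. The median cell has 48.3 and 87.1 for Gzma and 3.46 and 7.5 for Irf8, and a single Dapl1-KO cell reaches 332 for Gzmc.

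Hspa1a, Hspa1b and Dnajb1, inducible chaperones of the cytosol, had the lowest ratios of the 2214 genes apart from Xist. These heat shock genes are switched on by the factor HSF1 when proteins unfold. Hspa1a (HSP70) had 1828 counts in 71 cells of WT and 355 in 34 cells of Dapl1-KO, or 1697 and 270 CPM (log2 ratio -2.65, -2.82 to -2.49). Hspa1b, its near copy on chromosome 17, was at 1238 and 213 CPM (-2.54, -2.73 to -2.35), and reads of the pair may be hard to assign. Both genes were counted in 46.2% (37.9% to 54.7%) of WT members and 13.95% (9.15% to 20.05%) of Dapl1-KO members. Dnajb1 (HSP40), the co-chaperone of HSP70, was at 665 and 200 CPM (-1.74), and Hsp90aa1, the inducible HSP90, at 1622 and 615 CPM (-1.40). Of 13 tested heat shock genes 8 were lower and 0 higher, against 3.12% and 4.34% of all tested genes. Their median was -0.83, and the 15 listed genes summed to 11678 CPM in WT and 6000 CPM in Dapl1-KO. Hspa5 and Hsp90b1, the chaperones of the endoplasmic reticulum, stood apart at 0.20 each.

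The heat shock difference was not limited to these cells. Hspa1a had log2 ratios of -2.08 in Ly49-negative NK cells, -3.58 in NK cells with Il7r or Cd200r1, -2.21 in CD8 T cells and -1.69 in CD4 T cells. Hsp90aa1 was -1.39 in Ly49-negative NK cells but 0.01 in CD8 T cells, and whether these classes differ was not tested. In the 6 WT members with a Y-linked message and no Xist, set against 106 such members of Dapl1-KO, Hspa1a was at -1.61, Hsp90aa1 at -0.43, Hspa1b at 0.03 and Dnajb1 at 0.17. The median of the list was -0.05 there. These values rest on 6 cells. In larger groups chosen by the same messages, Hspa1a, Hspa1b and Dnajb1 were lower in Dapl1-KO, while Hsp90aa1 was lower only inside the NK gate. Over all gated NK cells with a Y-linked message alone (18 and 311 cells), Hspa1a was at 2271 and 299 CPM, Hspa1b at 1820 and 257 CPM and Dnajb1 at 916 and 234 CPM. Outside the NK gate (1000 and 7654 such cells), Hspa1a was at 975 and 165 CPM, Hspa1b at 531 and 121 CPM and Dnajb1 at 383 and 115 CPM. Hsp90aa1 was at 2445 CPM in WT and 652 CPM in Dapl1-KO in these gated NK cells. Outside the gate it was at 838 and 888 CPM.

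Heat shock elements, where HSF1 binds, are rows of the unit GAA in alternating orientation. Promoters from RefSeq were searched on both strands for 2 exact forms, GAANNTTCNNGAA and TTCNNGAANNTTC, which may overlap and of which each reads as the other on the opposite strand. Promoter windows ran from 250 bases before to 50 bases after a start site in GRCm38.p6. A form was found in 198 of 32851 windows (0.603%), and in 4 of the 18 windows that belong to 12 listed heat shock genes (22.2%). The sites of 3 genes are shown, with the element in capitals, because 2 of these genes were lower in the Dapl1-KO-labelled library. Hspd1 and Hspe1 (HSP60 and HSP10) face away from each other and share 1 site, at chr1:55088051-55088079 on the minus strand for Hspd1 and chr1:55088056-55088084 on the plus strand for Hspe1. That of Hsph1 (HSP110) lies at chr5:149636280-149636308 on the minus strand.
Hspd1: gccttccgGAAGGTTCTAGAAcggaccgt
Hspe1: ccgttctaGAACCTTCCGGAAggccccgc
Hsph1: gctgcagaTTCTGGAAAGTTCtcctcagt
Hspd1 was lower (log2 ratio -0.91), as was Hsph1 (-0.85), while Hspe1 was within the limit (-0.40). These letters do not occur in the windows of Hspa1a, Hspa1b and Dnajb1, which says nothing about the factor at those genes.

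Other groups held a few genes past the limit, where 4.34% of all tested genes were higher and 3.12% lower. Fosb, an AP-1 subunit of the early response, had 50 counts in 23 cells of WT and 177 in 73 cells of Dapl1-KO, or 46.4 and 135 CPM (log2 ratio 1.54, 1.08 to 2.02). Its ratio was inside the fold limit in Ly49-negative NK cells (0.25) and CD8 T cells (0.31), and was -0.46 in members with a Y-linked message alone. Only Fosb and Egr1 (0.65) of 20 tested early response genes were higher, and the list's median was 0.13. Of 11 tested glycolysis and hypoxia genes 4 were higher and 0 lower, with a median of 0.39. They were Ldha, the lactate dehydrogenase (255 and 455 CPM; 0.83, 0.62 to 1.04), Tpi1 (0.78), Eno1 (0.62) and the factor Hif1a (0.61). In NK cells with Il7r or Cd200r1, 2 of 11 were higher and 0 lower, with a median of 0.35. In Ly49-negative NK cells 0 of 11 passed, with a median of 0.10. Differences between the classes were not tested. Anxa2 and Lgals3 were higher (0.63 each) of 13 S100, annexin and galectin genes, and Nfkb2 (0.997) of 7 genes of NF-kB feedback.

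Proliferation and interferon genes did not pass as groups, where 7.45% of all tested genes passed in either direction. None of 5 tested DNA replication genes and none of 4 mitosis genes passed. Mki67 or Top2a was counted in 26.9% (19.9% to 34.9%) of WT and 27.9% (21.3% to 35.2%) of Dapl1-KO members. Most of that share came from Top2a, since Mki67 had 14 and 12 counts and was at 0 in 135 of 145 and 164 of 172 members. None of 12 interferon-γ response genes passed, with a median of 0.16. Bst2 (tetherin) was the 1 of 3 type I interferon genes that passed (0.73). None of 10 NKG2 and NKR-P1 receptor genes passed, with a median of 0.08, nor any of 12 receptor adaptors (0.24), among them Tyrobp and Fcer1g at 0.27. None of 3 tested checkpoint receptors passed. Low ratios outside the heat shock genes included those of Tmem106b (-1.56), Ccdc117 (-1.53), Nrgn (-1.40), Ly6c2 (-1.36, in 16 and 9 cells) and Tcf4 (-1.29). The highest after the granzymes and Fosb belonged to Tubb4b (1.17), Pmepa1 (1.06), Hmgn2 (1.05) and Ppp2r1a (1.04).

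The series allows a test only between kinds of NK cell, since each kind was present in both libraries. Sums of counts over the cells of each class and library were compared with edgeR's quasi-likelihood test with Benjamini-Hochberg adjustment over 6840 genes, with the library as a term. Genes of the rule and other Klra genes were left out. The p-values rest on a spread shared over genes. They do not by themselves show that the 2 libraries, which carry different labels, agree. Gzmc against Ly49-negative NK cells had an edgeR adjusted p of 3.53e-04 although its direction differed between the libraries. It was at 415 against 570 CPM in WT and at 822 against 179 CPM in Dapl1-KO. Against NK cells with Il7r or Cd200r1 (116 and 59 cells), 112 genes (1.64%) were higher and 151 (2.21%) lower in Ly49 NK cells at an adjusted p under 0.05, and 259 of the 263 went the same way in both libraries. Against Ly49-negative NK cells (135 and 270 cells), 12 genes (0.175%) were higher and 60 (0.877%) lower, and 68 of the 72 went the same way. DESeq2 called 32 and 36 in the first comparison and 0 and 10 in the second.

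Genes of the conventional lineage were higher in Ly49 NK cells than in NK cells with Il7r or Cd200r1. Of 14 tested genes of that list 10 were higher and 0 lower, with a median log2 difference of 0.78 against -0.00 for all genes. Of all 6840 genes 1.64% were higher and 2.21% lower. Gzma was at 6111 and 9637 CPM in Ly49 NK cells and at 1075 and 3394 CPM in the other class (log2 difference 2.06, SE 0.09, adjusted p = 1.09e-31). Eomes was at 273 and 222 CPM against 113 and 103 CPM (1.28, SE 0.15, adjusted p = 1.0e-10). The libraries did not overlap between the classes for either gene. Prf1 (1.09, SE 0.13), Zeb2 (0.93, SE 0.28), which drives terminal NK maturation, Irf8 (0.86, SE 0.10), Nkg7 (0.81) and Tyrobp (0.72) rose as well. Cma1, a chymase, had the largest difference on the list (2.71, SE 0.62, adjusted p = 2.00e-03) at 15.8 and 25.1 CPM against 3.49 and 2.15 CPM. Among granule genes 8 of 20 rose, and the protease inhibitor Serpinb9b (2.04) and Gzmk (1.93) came next after Gzma. Gzmc fell (-1.08, SE 0.18), at 415 and 822 CPM against 1803 and 1154 CPM.

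ILC1 genes were lower in Ly49 NK cells than in NK cells with Il7r or Cd200r1. Of 15 tested, 10 were lower and 0 higher, with a median of -1.78, against 2.21% and 1.64% of all 6840 genes. Rora, a nuclear receptor of helper-like innate lymphocytes, was at 30.6 and 23.6 CPM against 228 and 282 CPM (-3.11, SE 0.20, adjusted p = 3.97e-22). Tmem176a (-5.58) and Tmem176b (-4.92), membrane proteins, were at 2.29 to 6.50 CPM in Ly49 NK cells and 136 to 204 CPM in the other class. Cxcr6 (-2.84), Inpp4b (-2.16), Tnfsf10 (-1.78) and Ltb (-0.94) also fell. Itga1 (CD49a) did not pass, at 12.1 and 6.86 CPM against 8.15 and 17.2 CPM. The lists were chosen with earlier results of these data known, and the Il7r and Cd200r1 part of the rule sets these cells apart, so the direction is not independent evidence.

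Receptors and secreted products separated Ly49 NK cells from NK cells with Il7r or Cd200r1 gene by gene. Of all 6840 genes 1.64% were higher and 2.21% lower in this comparison. Ly49 NK cells were higher in Klri2 (1.248), Klre1 (0.97) and Klrd1 (0.48), lectin-like receptors of the NK gene complex, and lower in Klrc1 (NKG2A; -1.19) and Klrb1b (-1.26), 5 of 10 tested. They were higher in Ccl3 (1.45), Fasl (1.10), Ccl5 (1.09), Ccl4 (0.73) and Tgfb1 (0.69), and lower in Ccl1 (-8.18), Csf2 (-3.68), Ccl9 (-2.79), Tnfsf10, Tnf (-1.73) and Xcl1 (-0.40), 11 of 14 tested. Ccl1, a chemokine for CCR8-bearing cells, was at 0.93 and 1.52 CPM in Ly49 NK cells and at 882 and 58.0 CPM in the other class. The signalling genes Cd247 (CD3ζ; 1.59), Sh2d1a (SAP; 1.10), Lat2 (0.998) and Fyn (0.95) were higher, and Cd226 (DNAM-1) was lower (-1.84). Il1b (-6.92), Thbs1 (-7.24), Cxcl2 (-4.29) and Cd74 (-4.36) were also lower. Macrophage markers moved with these genes. Lyz2 was at 8.15 and 217 CPM in NK cells with Il7r or Cd200r1, where the 8 macrophage markers summed to 33.8 and 340 CPM, and their part in the result was not tested.

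Against Ly49-negative NK cells the lineage genes were nearly level and mitotic genes were lower. Of all 6840 genes 0.175% were higher and 0.877% lower. Eomes was the 1 of 14 conventional NK genes that rose (0.47, SE 0.12, adjusted p = 0.0170), at 273 and 222 CPM against 185 and 178 CPM. Gzma was at 0.20 (SE 0.08, adjusted p = 0.493) and Prf1 at 0.38 (SE 0.11, adjusted p = 0.0626), neither past the threshold. Of 17 tested mitosis genes 13 fell, with a median of -1.86. The 60 lower genes of this comparison numbered 12 after thinning to 3000 UMIs and 10 with DESeq2. Cenpf, a kinetochore protein, was at 0.93 and 0.76 CPM against 25.9 and 25.7 CPM (-4.71, SE 0.65, adjusted p = 1.53e-07). Birc5 (survivin) fell by 2.39 on the log2 scale, Ube2c by 2.35 and Mki67 by 1.81. In contrast 1 of 19 DNA replication genes was lower and 0 higher, with a median of 0.20. A lower level of mitosis genes was also seen against NK cells with Il7r or Cd200r1, where 9 of 17 fell and 2.21% of all genes did. There Ccnb2 was at -3.17 and Ube2c at -2.05.

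A further set of genes fell against both other classes. Klrc1, which encodes the inhibitory receptor NKG2A, was at 143 and 184 CPM in Ly49 NK cells and at 344 and 352 CPM in Ly49-negative NK cells (-1.04, SE 0.12, adjusted p = 3.9e-10). Klrb1b (-0.92), Rora (-1.66), Gpr183 (-1.12), Tmem176a (-3.41), Tmem176b (-2.46), Ikzf2 (Helios; -0.88), Ifitm3 (-3.43) and Cd74 (-2.84) fell as well. Klri2 rose against both classes (0.62 here, adjusted p = 9.93e-04). Ccl3 (0.67), Khdc1a (0.76), Fyn (0.56) and the secreted phosphoprotein Spp1 (1.60) were among the 12 higher genes. Gzmc was another (0.97), but at 415 against 570 CPM it was lower in WT and only at 822 against 179 CPM higher in Dapl1-KO, where 1 cell held most of its counts. Without that library the value was -0.46. DESeq2 called 0 genes higher, with 20 at an unadjusted p under 0.05, and edgeR without the library term called 0, with 77, against 205 unadjusted in the edgeR fit reported. The 12 higher genes of this comparison therefore depend on the method, while DESeq2 and the fit without the library term each called 10 genes lower, against 60.

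**Figure D5:**
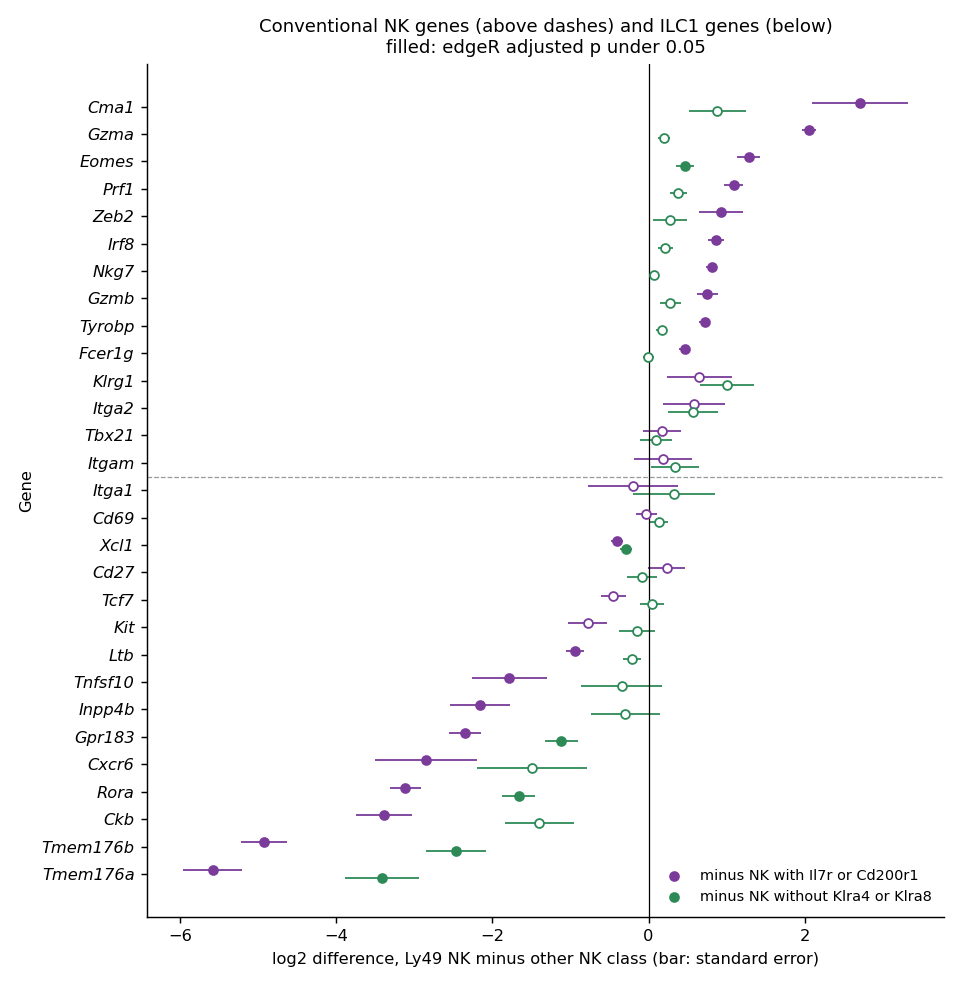
Log2 difference of Ly49 NK cells over the 2 other NK classes, with its standard error from edgeR, for conventional NK genes (above the dashes) and ILC1 genes (below), filled where the adjusted p is under 0.05. Gzma reads 2.06 against NK cells with Il7r or Cd200r1 and 0.20 against Ly49-negative NK cells, and Rora -3.11 and -1.66.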

How the data were processed

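The authors deposited raw UMI counts (whole numbers) for 32285 genes in every barcode. Cell Ranger 5.0.0, mm10 and GRCm38 appear in the submitters' processing notes, and per the labels' protocols the libraries used 10x Genomics 3′ chemistry. The smallest deposited barcode total was 500 UMIs. Groups came from the genotype labels alone.

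Of barcodes found in both libraries only a copy with at least 2 times the UMIs was kept. A minimum of 500 genes and a maximum of 10% mitochondrial counts left 9865 and 11156 cells. Reads were not reassigned among paralogs, and the sources used here do not give whether counting used strand. Cells of a class were summed per library and divided by the total (CPM). Log2 ratios set Dapl1-KO over WT with exact conditional 95% intervals, and a floor of 3 counts. Shares have exact Clopper-Pearson intervals. Thinning drew 3000 UMIs per cell.

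Counts per library and class were compared with edgeR 4.0.16 (TMM, filterByExpr, terms for library and class, 3 classes in 1 fit), with DESeq2 1.42.0 as an alternative, in R 4.3.3. The spread was shared over genes, so p-values are smaller than 2 libraries alone could give. Cells, not animals, were measured, and whether a library held 1 or several mice is unknown. Scripts used Python 3.11.15, scipy 1.17.1 and scanpy 1.11.5 and were tested on simulated counts.

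The members, lists and tests were chosen with earlier results of these data known. Named genes between the labels were the 12 highest and 12 lowest ratios at 50 CPM or more, all Ly49 and conventional NK list members, and up to 4 members of each other list with the largest ratios. Between the classes they were the 12 highest and 12 lowest called differences and 4 lists. Antigen receptor, sex-linked, mitochondrial and ribosomal genes, unnamed models, Dapl1 and genes of the rule were left out of the rankings. A few genes that this rule names are not reported here. Other genes named in the text were chosen after their values were seen. Alternatives covered barcodes, cell filters, the NK and Ly49 thresholds, doublets, scaling, expression and fold limits, and, after the data were seen, leaving out 1 cell or the highest cells.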

Additional observations from a re-analysis of the deposited data

Results flagged for a closer look

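In 5 comparisons the ratio of the library labelled Dapl1-KO over WT pointed one way in the Ly49 NK cells and the other way in another class of cells. None of these differences was tested, since each class has 1 library per label. Ly6c2, a surface protein of memory T cells and some NK cells, had a log2 ratio of -1.36 in the Ly49 NK cells and 1.01 in CD8 T cells. Its counts came from 16 and 9 Ly49 NK cells, and 27 of the 63 WT counts came from 1 cell. Klf2, a factor of lymphocyte trafficking, had a ratio of 0.66 in the Ly49 NK cells and -0.87 in CD8 T cells. Gzmf had 1.32 in the Ly49 NK cells and -0.86 in CD8 T cells. Gzmc had 0.99 in the Ly49 NK cells, -0.64 in NK cells with Il7r or Cd200r1 and -1.67 in Ly49-negative NK cells. The values of Gzmc and Gzmf in the Ly49 NK cells rest on 1 cell, without which both were negative, at -0.53 and -0.71, as in the other classes.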

How the results depend on the processing

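Between the labels, 96 genes were higher and 69 lower in the main setting. With members whose barcode occurred in 1 library only (28 and 78 cells) the counts were 469 and 250. Of the 96 higher genes 61 still passed the fold limit there and 7 turned, and of the 69 lower genes 44 and 8. In that setting the conventional NK median was 0.43, and the log2 ratios of Gzmf (-0.29), Gzmc (-0.53), Klra4 (0.078), Ccl4 (-0.75), Il12rb2 (-0.45) and Anxa2 (-0.0088) turned. The difference in share, Dapl1-KO minus WT, was 0.541 points of kept cells and -9.08 points of gated NK cells. All deposited barcodes gave 62 higher genes and a heat shock median of -0.66, and the stricter cell filter gave a heat shock median of -0.74. Requiring both Ncr1 and Klrb1c gave 169 and 110 genes, an ILC1 median of 0.19 and -0.093 for Lgals3.

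With cells that held a Y-linked message and no Xist or Tsix (6 and 106), 743 genes were higher and 748 lower. List medians were then 0.93 for conventional NK, 0.53 for granule, -0.046 for heat shock, -0.012 for adaptors, -0.12 for transcription factors, -0.14 for cytokine receptors, -1.45 for checkpoints, -0.040 for early response, -0.40 for TGF-β response and -0.031 for glycolysis. Ratios that turned were Hspa1b (0.032), Dnajb1 (0.17), Nrgn (0.017), Cited4 (0.045), Fosb (-0.46), Egr1 (-0.10), Hif1a (-0.35) and Lgals3 (-0.33). Without the 1 cell rich in Gzmc, a setting chosen after seeing the data, the granule median was 0.19, and Gzmd (-0.999), Gzmf (-0.71) and Gzmc (-0.53) turned. The mean over cells gave 105 lower genes and -0.25 for Gzmf, and centring gave 61 higher genes. Higher and lower counts were 316 and 325 at 20 CPM, 49 and 21 at 100 CPM, 457 and 217 at a lower fold limit, and 11 and 20 at 2-fold. The cytokine median was -0.16 with no CPM minimum.

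Between the classes, genes higher and lower against NK cells with Il7r or Cd200r1 numbered 16 and 43 without the library term, 60 and 62 after thinning, 17 and 17 with barcodes of 1 library, and 32 and 36 with DESeq2, instead of 112 and 151. Against Ly49-negative NK cells they numbered 0 and 10, 3 and 12, 4 and 3, and 0 and 10, instead of 12 and 60. Beside the higher counts of 0, edgeR without the library term had 77 genes and DESeq2 20 at an unadjusted p under 0.05. With barcodes of 1 library Khdc1a (-0.10) turned against Ly49-negative NK cells, as did Gzmc (-0.46) without the library labelled Dapl1-KO (2.20 without WT). The cause of these changes was not tested, except that a limit on level, fold or cells changes what can pass. RLE factors and no filter on low counts kept both class counts within 1.5 times. No paired analysis was possible because each label has 1 library. Depth limits genes under 50 CPM, where 1 cell may set a ratio.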

Other observations

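Klra7, the leading inhibitory Ly49 gene, was counted in cells with different mixtures of the activating genes at rates that differed between the libraries. In WT it was found in 74.1% (60.3% to 85.04%) of members with Klra4 and Klra8, in 45.5% (30.4% to 61.2%) with Klra4 only and in 51.1% (36.1% to 65.9%) with Klra8 only. In Dapl1-KO the shares were 70.5% (54.8% to 83.2%), 70.7% (54.5% to 83.9%) and 63.2% (52.2% to 73.3%), close to each other. Median depths were 7366, 5706.5 and 6174 UMIs in WT and 7176.5, 6975 and 6682 UMIs in Dapl1-KO, so depth moved with these shares in WT, and its part in the result was not tested. The difference between the libraries was not tested.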
